A study of Homo sapiens with 2 samples.

Results

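Deep intragenic peaks of HA-tagged RFX6 were examined, meaning peak intervals that lay far inside a protein-coding gene and away from any annotated gene end. A member was an interval on chromosomes 1 to 22 whose midpoint lay inside a protein-coding gene, over 5 kb from every protein-coding gene end and over 1 kb from the ends of all other annotated genes. Of 4994 distinct intervals on these chromosomes, 724 were members, a share of 14.5% with a 95% Wilson interval of 13.5 to 15.5%. The peaks came from chromatin immunoprecipitation followed by sequencing (ChIP-seq) with 1 HA-RFX6 ChIP library from MHCC-97H, an established human hepatocellular carcinoma (HCC) line in which HA-tagged RFX6 was overexpressed, and 1 input library from the same line. The labels gave no drug treatment, time point or clone, and no peaks or reads of the input were analysed here. With 1 ChIP library there was no replicate, so intervals below cover the counting of peaks, genes or start sites only and no p-value is given.

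Regulatory factor X (RFX) proteins, RFX6 among them, are transcription factors whose shared DNA-binding domain recognises the X-box, a pair of inverted half-sites. RFX6 is best known as a regulator of the developing pancreatic islet and gut endocrine cells. The body of a long human gene can hold inner promoters, from which shorter transcripts begin, as well as enhancers, and many inner promoters lie in stretches rich in G, C and the CpG dinucleotide.

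A recurrent feature of the members was an inner start site, meaning a transcript start listed by RefSeq deep inside the listed extent of a gene. The name refers to position only. Which listed start of a gene is its main one was not determined, and an inner start may be the main one. The sequence before such a start is shown for the 4 members with the highest scores among the 59 whose interval covered at least 100 of the 250 bases before the first start of its cluster, and for PMVK, which was added because it held an RFX half-site. Each was copied from RefSeq on GRCh38.p14 and is written 5′ to 3′ on the strand of the gene, ending 1 base before the start. Capitals mark the bases that the peak interval covered. The windows lie at chr19:1863580-1863829 for KLF16, minus strand; chr3:48473159-48473408 for SHISA5, minus strand; chr20:49188335-49188584 for STAU1, minus strand; chr10:74176513-74176762 for ADK, plus strand; and chr1:154936720-154936969 for PMVK, minus strand.
KLF16: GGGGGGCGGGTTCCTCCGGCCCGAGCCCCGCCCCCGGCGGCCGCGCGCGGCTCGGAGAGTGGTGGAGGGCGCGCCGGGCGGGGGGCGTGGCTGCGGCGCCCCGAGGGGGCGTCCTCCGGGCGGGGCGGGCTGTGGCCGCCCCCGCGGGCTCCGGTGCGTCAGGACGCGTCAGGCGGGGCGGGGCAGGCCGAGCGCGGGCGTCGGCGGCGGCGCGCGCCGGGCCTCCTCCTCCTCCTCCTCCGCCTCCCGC
SHISA5: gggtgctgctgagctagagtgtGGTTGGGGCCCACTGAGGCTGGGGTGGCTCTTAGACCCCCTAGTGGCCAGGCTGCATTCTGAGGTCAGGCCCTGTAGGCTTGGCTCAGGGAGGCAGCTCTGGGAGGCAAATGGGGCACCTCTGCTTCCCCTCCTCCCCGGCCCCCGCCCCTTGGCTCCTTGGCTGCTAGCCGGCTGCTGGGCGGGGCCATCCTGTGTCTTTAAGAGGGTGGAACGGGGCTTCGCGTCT
STAU1: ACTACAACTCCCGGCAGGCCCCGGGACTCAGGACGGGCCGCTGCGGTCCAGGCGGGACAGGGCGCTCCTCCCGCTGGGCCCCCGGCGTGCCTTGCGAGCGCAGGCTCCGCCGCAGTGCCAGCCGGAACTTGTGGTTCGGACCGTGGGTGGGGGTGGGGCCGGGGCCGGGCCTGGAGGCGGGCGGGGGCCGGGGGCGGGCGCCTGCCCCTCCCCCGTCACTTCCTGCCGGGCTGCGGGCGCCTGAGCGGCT
ADK: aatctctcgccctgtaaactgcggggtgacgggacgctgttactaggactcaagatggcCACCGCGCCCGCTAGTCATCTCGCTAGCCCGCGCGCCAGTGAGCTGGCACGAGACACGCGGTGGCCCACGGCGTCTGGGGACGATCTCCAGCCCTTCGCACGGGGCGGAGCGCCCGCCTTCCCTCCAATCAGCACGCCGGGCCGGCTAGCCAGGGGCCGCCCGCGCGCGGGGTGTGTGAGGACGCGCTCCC
PMVK: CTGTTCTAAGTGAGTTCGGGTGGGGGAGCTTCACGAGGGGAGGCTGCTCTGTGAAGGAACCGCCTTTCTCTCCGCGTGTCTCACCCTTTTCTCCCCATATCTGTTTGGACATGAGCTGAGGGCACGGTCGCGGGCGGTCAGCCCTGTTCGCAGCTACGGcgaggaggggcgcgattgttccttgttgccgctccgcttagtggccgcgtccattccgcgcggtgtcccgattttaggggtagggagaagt

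KLF16, a zinc-finger transcription factor, had a window with 86.4% G and C and 45 CpG. The interval covered all 250 bases there, and GGGCGG or its complement, the core of the GC box bound by Sp1 and Krüppel-like factors, occurred 7 times. STAU1, an RNA-binding protein of messenger RNA transport and decay, had a window with 79.2% G and C and 29 CpG. ADK, the kinase that turns adenosine into AMP, had 70.8% and 32. SHISA5, a membrane protein of the endoplasmic reticulum, had 66.4% and 7, so its window was rich in G and C but held few CpG. GGGCGG or its complement was found 2 times in each of these last 3 windows. GTTGCC or its complement GGCAAC, taken as the half-site of the X-box, was absent from the 4 windows with the highest scores. PMVK, an enzyme of the mevalonate pathway, held 1 half-site that began 67 bases before the start, in the lower-case part that the interval did not cover. Of the 59 windows, 3 held the half-site and 47 held GGGCGG on either strand.

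Members were sparse but denser than peaks between genes. Deep gene bodies, the stretches that meet the rule, spanned 1011 Mb and held 0.716 intervals per Mb with an exact Poisson 95% interval of 0.665 to 0.770. The regions between genes held 0.340 intervals per Mb (0.310 to 0.372), so deep gene bodies were 2.104 times as dense (1.87 to 2.37). The regions between genes began 1 kb from a protein-coding gene end and deep gene bodies 5 kb from one, so distance was not matched. Without the 139 members known to lie within 1 kb of an inner start, the ratio was 1.70. The host of 142 other members was not in the list of starts, so these could not be judged and were kept. The regions within 1 kb of a protein-coding gene end held 3035 intervals, or 43.7 per Mb. The 1 to 5 kb next to an end inside a gene held 533, or 4.28 per Mb. The plot of density and score by position places the members between this class and the regions between genes in density.

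**Figure D1:**
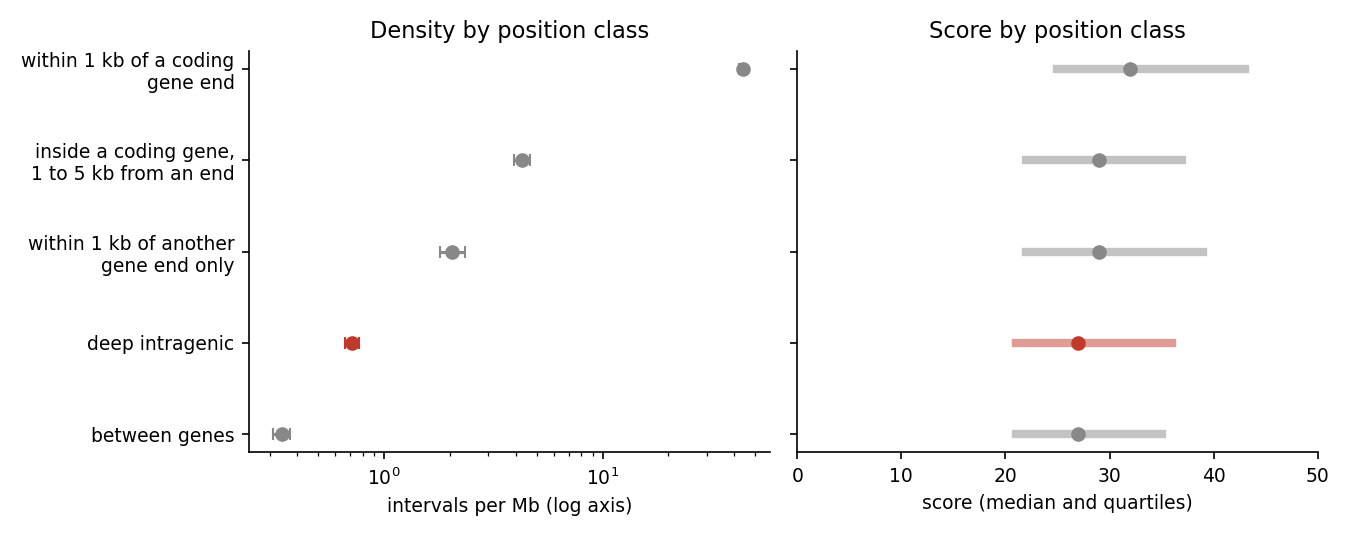
Left, intervals per Mb (log axis) in 5 position classes with exact Poisson 95% intervals. Right, the median score (point) with its quartiles (bar). Deep intragenic intervals, in red, had 0.716 per Mb and a median score of 27, against 43.7 per Mb and 32 within 1 kb of a protein-coding gene end.

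The score is a whole number that the deposited list gives each peak, and what it stands for was not given in the sources used here, so it served only to rank peaks within the list. Members scored 27 at the median, the quartiles were 21 and 36, and the range was 13 to 102. Intervals at protein-coding gene ends scored 32 at the median (quartiles 25 and 43), and those between genes had a median of 27. A score of at least 30 was reached by 44.2% of members (40.6 to 47.8), by 57.2% of intervals at gene ends (55.4 to 59.0) and by 40.6% between genes (36.3 to 45.1). Members were 257.5 bp wide at the median, with quartiles of 215 and 341 bp, against 282 bp at gene ends and 252 bp between genes. Some intervals were written on more than 1 line of the list, and this held for 10.8% of members (8.72 to 13.2), against 22.3% at gene ends (20.9 to 23.9) and 7.19% between genes (5.19 to 9.88). In score, width and repeated lines, the members were therefore nearer to the intervals between genes than to those at gene ends. Intervals inside a gene at 1 to 5 kb from an end had a median score of 29, a median width of 260 bp and repeated lines in 14.6%. In width the members were nearest to that class.

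Inner starts held a far larger share of the members than of the sequence. The RefSeq start table, which lists several starts for many genes, covered the host gene of 582 members. Of these, 139 lay within 1 kb of an inner start, a share of 23.9% (20.6 to 27.5). The same windows made up 0.644% of the deep gene bodies of the listed genes. Intervals numbered 26.0 per Mb (21.9 to 30.7) within the windows and 0.538 per Mb (0.489 to 0.591) elsewhere, a ratio of 48.4 (39.7 to 58.7). After the whole list had been moved by 20 kb, 1.15% and 0.565% of the intervals then falling in these gene bodies lay in the windows. At 500 bp the windows held 125 members, and at 2 kb they held 166.

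The offset of each midpoint from the nearest listed start was centred on the start. Its median was 16 bp, its quartiles were -165.5 and 186 bp (negative values are upstream), and 96 of the 139 were within 250 bp. The start itself was spanned by 64 intervals, or 46.0% (38.0 to 54.3). Midpoints upstream of the start numbered 66 of the 139, so neither side held clearly more. All 139 were at a start of a gene that hosted them, and they involved 118 host genes. The rule for members largely fixed that all lay at a start of a host. A gene that starts within 1 kb without enclosing the midpoint would have an end there, and such intervals were left out. Only a start of a non-coding gene or pseudogene that encloses the midpoint could have differed. Members at inner starts had a median score of 31 (quartiles 25 and 40) and a median width of 305 bp, whereas the other 443 had 27 (21 and 35) and 253 bp. Repeated lines were found for 17.3% (11.9 to 24.4) of the members at inner starts and for 10.2% (7.68 to 13.3) of the others.

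**Figure D2:**
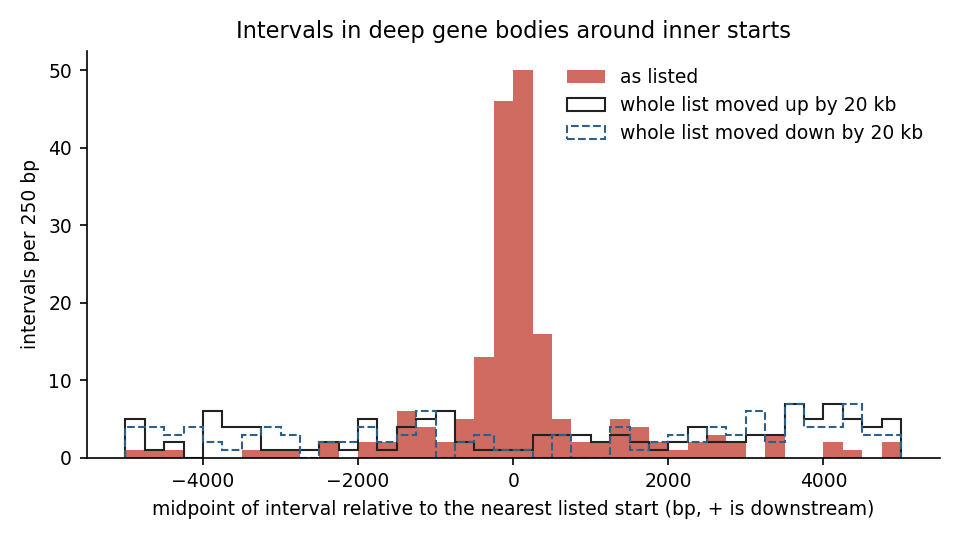
Number of intervals in deep gene bodies per 250 bp by the offset of the midpoint from the nearest listed start (bp, positive downstream). The red bars, the list as deposited, peak within 250 bp of the start on both sides, where 96 members lay. The outlines show the whole list moved by 20 kb up or down and have no peak at the start.

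Most inner starts had no peak. Starts within 500 bp of the last one kept along a chromosome were joined, whatever their gene or strand. This gave 2734 inner starts in 1941 genes, and 130 of these starts (4.75%, 4.02 to 5.62) had an interval within 1 kb. The 300-base windows around the starts with an interval had a median of 70.7% G and C (quartiles 64.8 and 75.3), against 51.3% (42.7 and 62) for inner starts without one and 62.7% (54.0 and 70.3) for the outermost starts of 15101 protein-coding genes. The ratio of observed to expected CpG had medians of 0.829, 0.323 and 0.765 in the same order. In windows with under 50% G and C, 3 of 1208 inner starts had an interval, or 0.248% (0.0845 to 0.728). The share was 1.70% (0.953 to 3.02) at 50 to 60%, 9.82% (7.48 to 12.8) at 60 to 70% and 17.4% (13.96 to 21.5) at 70% or more. The share with an interval therefore rose with base composition in each step.

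The outermost starts showed the same order at higher shares. An interval within 1 kb was found for 2.11% (1.63 to 2.72), 10.2% (9.18 to 11.2), 19.0% (18.0 to 20.1) and 26.6% (25.2 to 28.0) of them in the same 4 classes. The confidence intervals of inner and outermost starts did not overlap in any class, and the inner starts were lower each time. Transcript levels, which could differ between inner and outermost starts, were not measured by these files, and their part was not tested.

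**Figure D3:**
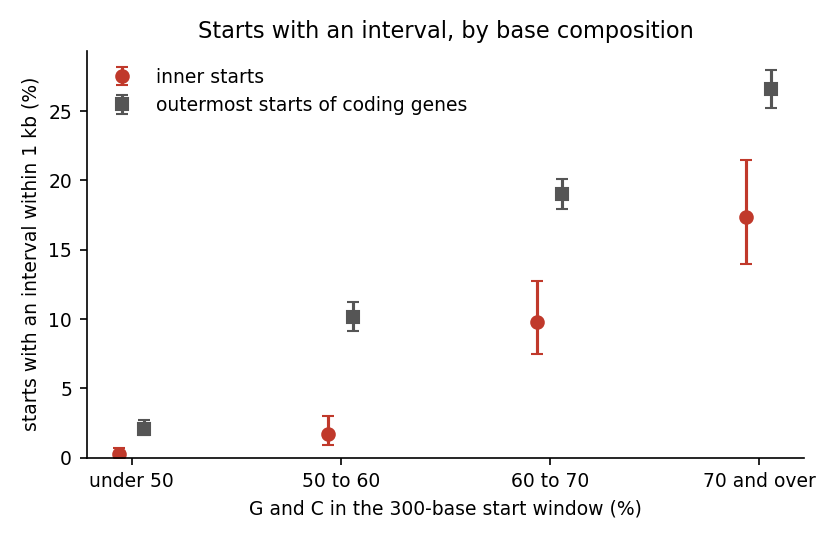
Share of starts (%) with an interval within 1 kb by the content of G and C (%) of the 300-base start window, with 95% Wilson intervals. Inner starts (red) rose from 0.248% to 17.4% and outermost starts of protein-coding genes (grey squares) from 2.11% to 26.6%.

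The half-site of the X-box was not clearly more frequent at inner starts with an interval. GTTGCC on either strand was found in 14.6% (9.56 to 21.7) of their 300-base windows, in 11.6% (10.4 to 12.8) of those without an interval and in 12.5% (12.01 to 13.1) of outermost starts. Among windows whose G and C content was within the quartiles of those with an interval (64.8 to 75.3%), 17.2% (9.88 to 28.2) of 64 with an interval held it against 10% (7.28 to 13.6) of 350 without, and these intervals overlapped. GGGCGG, chosen after the base composition had been seen, was in 83.1% (75.7 to 88.5), 29.1% (27.4 to 30.9) and 58.7% (57.9 to 59.5) of the 3 groups, an order that its letters share with the content of G and C. CCGGAAG, the core site of ETS factors, was in 10% (5.94 to 16.4), 4.57% (3.83 to 5.44) and 14.3% (13.7 to 14.9). TGANTCA, the AP-1 site, was in 3.08% (1.20 to 7.64), 10.7% (9.58 to 11.96) and 5.64% (5.29 to 6.02). TGTTTAC, a FOXA site, was in 2.31%, 4.53% and 2.69%, a core motif of CTCF, given by name because of its length, in 0.769%, 0.384% and 0.596%, and CCAAT, the NF-Y site, in 32.3%, 33.6% and 36.1%. Both strands were searched for each motif, GGGCGG and CCAAT were added after the data had been seen, and a match says only that the letters occur.

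Most of the 10 members of highest score were at inner starts. ASNS, which makes asparagine, held the top score of 102 at chr7:97872144-97872423, a stretch 20606 bp from the nearest gene end and 118 bp from an inner start. KLF16 followed with 100 at chr19:1862886-1864425, an interval 1540 bp wide and written on 4 lines. The interval of GPSM1, a modulator of G protein signalling, scored 81 at chr9:136345560-136345974, and its nearest listed start was 7269 bp away. SHISA5 and STAU1 scored 73 each. A score of 71 was shared by ITGB5 (an integrin subunit), ADK, EXOC3L4 (an exocyst-like protein) and TNFAIP2 (a gene induced by tumour necrosis factor), and AHCY, which cleaves S-adenosylhomocysteine, scored 70. Of these 10 members, 7 lay within 1 kb of an inner start, and the others were GPSM1, EXOC3L4 and TNFAIP2. Beyond these 10 the share was lower. In genes of the start table, 73 of 257 members with scores of at least 30 lay there (28.4%, 23.2 to 34.2). For all scores the share was 23.9% (20.6 to 27.5). Among the 100 highest scores of the whole autosomal list, only 4 were members.

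The widest and the most distant members had scores that reached from 13 to 100. The 5 widest members were in RXFP1, the relaxin receptor (1944 bp, score 17), BET1, a vesicle transport protein (1867 bp, score 30), GRM7, a metabotropic glutamate receptor (1579 bp, score 22), KLF16, and ZFPM2, a GATA cofactor (1413 bp, score 34). The 5 farthest from a protein-coding gene end were in SGCD, a sarcoglycan (464771 bp, score 13), SOX5 (309357 bp, score 25), ATRNL1 (260037 bp, score 27), TMEM132C (182922 bp, score 17) and IQSEC1 (169721 bp, score 21). All of these 5 scored at or below the median of the members. The members nearest to the limit were in MYLK at 5039 bp, MAFK at 5055 bp and GPR84 at 5089 bp, with scores of 25, 39 and 36. Intervals just short of it were in ATG16L2 at 4993 bp, KIF26A at 4977 bp and KIF3C at 4970 bp, with scores of 35, 20 and 20.

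Members became sparser with distance from a gene end. The median distance was 15410 bp, with quartiles of 8567 and 33638 bp. The density was 1.98 per Mb (1.73 to 2.25) at 5 to 10 kb, 1.21 (1.04 to 1.39) at 10 to 20 kb, 0.687 (0.591 to 0.794) at 20 to 50 kb, 0.440 (0.351 to 0.545) at 50 to 100 kb and 0.102 (0.0681 to 0.148) beyond 100 kb. The first 2 distances together were 14.9 times as dense as the last (10.2 to 22.7). Over 1 kb from inner starts, in the genes of the start table, the same 5 densities were 1.55, 0.892, 0.550, 0.288 and 0.0672 per Mb. Beyond 100 kb the density was below that between genes. The regions between genes hold every distance over 1 kb from a gene end, so distance was not matched in this comparison.

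Gene length moved with this distance. Inside genes of over 200 kb, which held 125 members, the densities were 0.384 per Mb (0.141 to 0.836), 0.537 (0.307 to 0.873), 0.241 (0.147 to 0.372), 0.425 (0.320 to 0.554) and 0.102 (0.0681 to 0.148) in the same order. There the ratio between 5 to 20 kb and beyond 100 kb was 4.73 (2.58 to 8.58), and the values up to 100 kb had overlapping intervals at neighbouring distances and no steady order. The stepwise decline over the first 100 kb was thus seen in all genes pooled and not in the long ones alone.

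**Figure D4:**
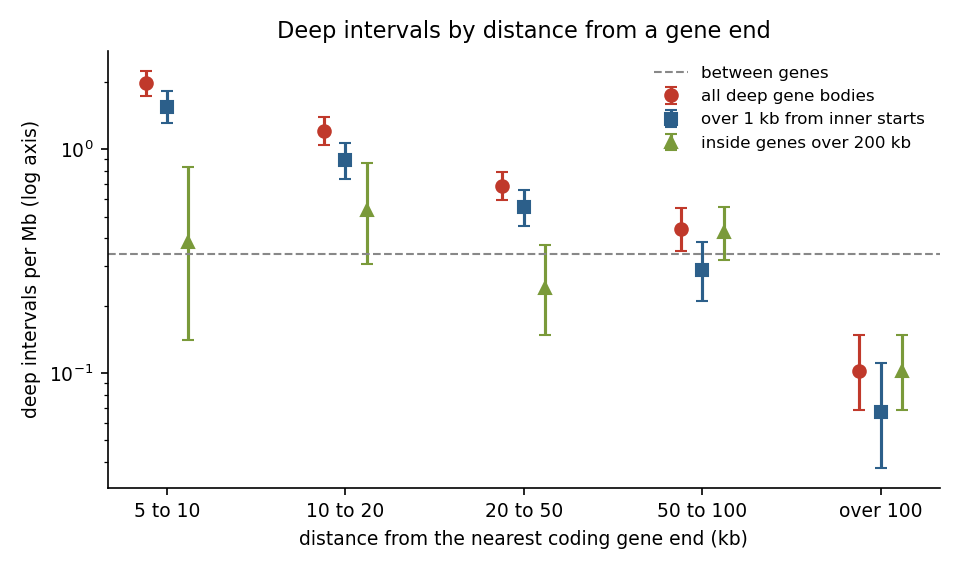
Deep intervals per Mb (log axis) by distance from the nearest protein-coding gene end (kb), with exact Poisson 95% intervals. All deep gene bodies (red circles) fell from 1.98 to 0.102 per Mb, sequence over 1 kb from inner starts (blue squares) fell alike, and genes over 200 kb (green triangles) stayed between 0.241 and 0.537 up to 100 kb. The dashed line is the density between genes, 0.340 per Mb.

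The side of the gene nearer to its start held slightly more members. Each gene was divided at its middle. Of 581 members in a gene with a listed start, 329 (56.6%, 52.6 to 60.6) lay on the start side, at 0.780 against 0.600 per Mb, a ratio of 1.30 (1.10 to 1.54). Over 1 kb from inner starts it was 237 of 442 (53.6%, 49.0 to 58.2), and the ratio was 1.16 (0.954 to 1.40), an interval that includes 1. An annotated non-coding gene or pseudogene enclosed the midpoint of 55 members (7.60%, 5.88 to 9.76), 50 of them long non-coding RNA genes. Such genes covered 6.50% of the length, so the share was near that of the sequence.

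A protein-coding gene of over 10 kb hosted a member in 528 of 13798 cases (3.83%, 3.52 to 4.16). Gene extents are those of the RefSeq table, of which 2 looked doubtful (RANBP2, listed at 1123 kb, is an example), and without both genes 723 members and a share of 3.81% were left. The share was 1.98% (1.64 to 2.39) for genes of 10 to 30 kb, 4.23% (3.72 to 4.81) at 30 to 100 kb, 6.11% (5.23 to 7.12) at 100 to 300 kb and 6.50% (4.93 to 8.51) above. Hosts had a median length of 68.4 kb, against 42.0 kb for all, and since the rule leaves out 5 kb at each end, a longer gene offers more room for a member. Per Mb of that room, members became sparser with gene length, at 3.32 (2.79 to 3.93), 1.38 (1.23 to 1.54), 0.621 (0.542 to 0.709) and 0.163 (0.126 to 0.208) in the same 4 classes. Hosts also had a peak at an own end more often. An interval within 1 kb of an own end was found for 17.2% of all genes over 10 kb, for 128 hosts (24.2%, 20.8 to 28.1) and for 17.0% (16.3 to 17.6) of the other genes, a difference of 7.28 percentage points (3.76 to 11.2 by Newcombe's method). Among intervals with scores of at least 30, the difference was 3.52 points. By length class it was 32.4% against 16.4% at 10 to 30 kb, 26.8% against 18.7% at 30 to 100 kb, 19.2% against 17.0% at 100 to 300 kb and 10.4% against 8.68% above, and the intervals overlapped in the last 2 classes. Where a start was listed, 22.1% (18.4 to 26.2) of hosts had the interval at the start and 1.88% (0.955 to 3.66) at the far end, against 16.8% and 0.795% of the other genes.

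Most host genes had a single member, and a small number had many. Of the hosts, 393 had 1 member and 135 had 2 or more, and the latter held 340 members. The next interval of the list was within 10 kb for 284 members (39.2%, 35.7 to 42.8), against 42.1% (37.7 to 46.6) between genes, 56.5% (52.2 to 60.6) at 1 to 5 kb inside a gene and 35.0% (33.3 to 36.7) at protein-coding gene ends, so close neighbours were about as common for members as between genes. SLC12A7, a potassium-chloride cotransporter on chromosome 5, had 11 members within 46.1 kb of its 105.5 kb, with scores of 45, 40, 32, 32, 30, 28, 28, 27, 25, 21 and 19. Only the highest of them was within 1 kb of an inner start, 74 bp away, and no interval lay at either end of the gene. AHRR, the repressor of the aryl hydrocarbon receptor, also on chromosome 5, had 9, with scores of 48, 41, 27, 26, 25, 22, 19, 17 and 16, none of them within 1 kb of an inner start. The 4 with scores of 48, 41, 19 and 17 lay between chr5:370784 and chr5:373346.

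IQSEC1, an exchange factor for ARF GTPases, had 9 members with scores of 56, 50, 38, 38, 29, 21, 21, 20 and 17 over 241.8 kb, of which those scoring 50 and 29 were within 1 kb of an inner start. KIF26A, a kinesin-like protein, had 6 with scores from 13 to 47 in a gene of only 42.3 kb, and PLEKHG5, a guanine nucleotide exchange factor, had 5 with scores from 19 to 45. PLEC, which encodes the cytoskeletal linker plectin, had 5 with scores from 27 to 60 and 3 more intervals at its own ends. The map of members in 4 of these genes shows where along each gene they lay. RALGDS had 5 as well and is named after its values were seen.

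**Figure D5:**
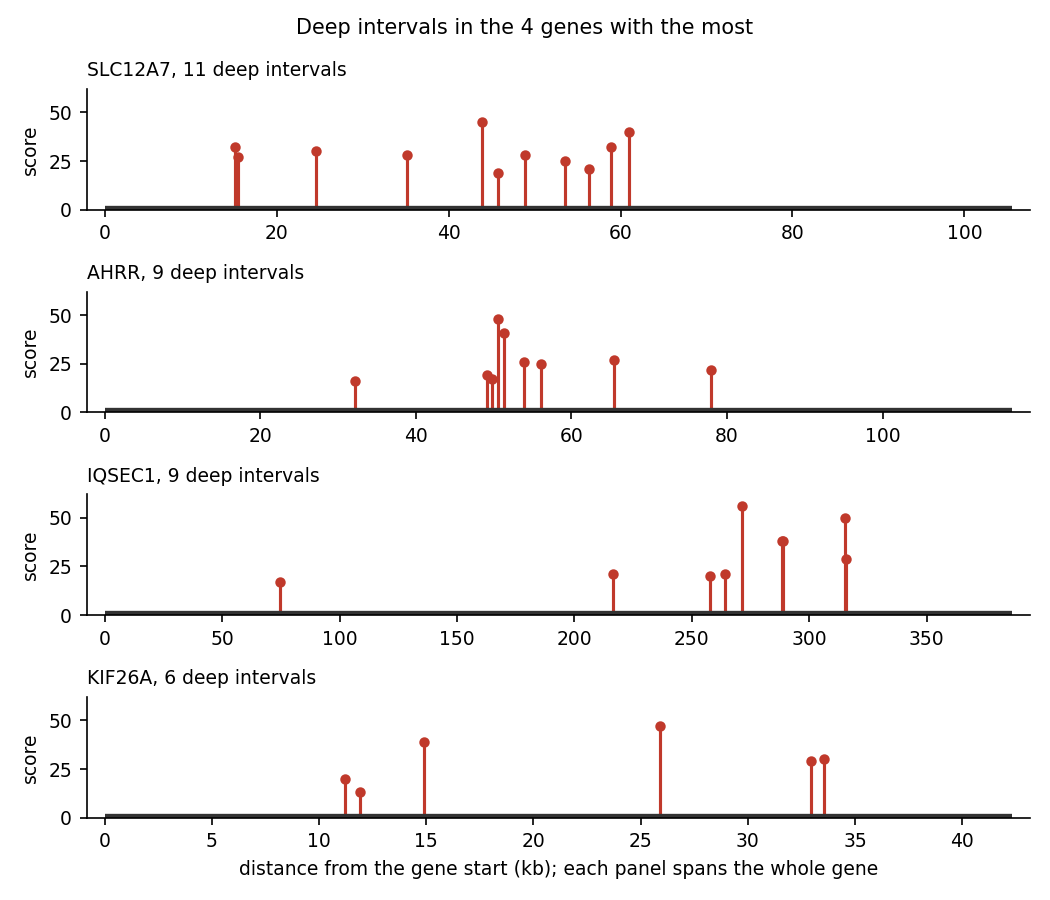
Members along the 4 genes that host the most, by distance from the gene start (kb); each stem is 1 interval and its height the score. SLC12A7 holds 11 members, AHRR 9, IQSEC1 9 and KIF26A 6, and the gene start and far end of each are free of members because the rule leaves out the outer 5 kb.

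The first 2 Mb of chromosome 5 held the 2 windows of 1 Mb with the most members, 20 and 17. Together they held 37 members on 0.790 Mb of deep gene body, or 46.8 per Mb (33.0 to 64.5), against 36 on 59.2 Mb in the rest of that chromosome, or 0.608 per Mb (0.426 to 0.842). The median score was 27 in the first stretch and 23 in the rest, and 1 of the 37 was at an inner start against 13 of the 36. Beside SLC12A7 and AHRR, the hosts there included SLC9A3, a sodium-proton exchanger, with 4, and the amino acid and dopamine transporter genes SLC6A19, SLC6A18 and SLC6A3 with 2 each. TERT, the telomerase catalytic subunit in the same stretch, hosted no member, and both of its intervals lay within 5 kb of a gene end or 1 kb of another annotated end. These genes were singled out after their values had been seen. The number of copies of this stretch in MHCC-97H cells and the signal of the input were not analysed here, and their part was not tested.

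Other chromosome ends were dense too. Within 2 Mb of the outermost gene of a chromosome there were 134 members, or 4.53 per Mb (3.79 to 5.36), against 1.36 (1.04 to 1.73) at 2 to 5 Mb, 1.03 (0.811 to 1.28) at 5 to 10 Mb and 0.523 (0.475 to 0.573) farther in. Without the first 2 Mb of chromosome 5, the first value was 3.37 (2.73 to 4.11). Away from inner starts the 4 values were 3.94, 1.20, 0.831 and 0.370 per Mb. The order was therefore the same with and without the inner starts and the first 2 Mb of chromosome 5.

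Whole chromosomes differed widely. Among the densest were chromosome 19 with 51 members (2.73 per Mb, 2.03 to 3.58), chromosome 17 with 63 (1.91, 1.47 to 2.44), chromosome 20 with 39 (1.75, 1.24 to 2.39) and chromosome 5 with 73 (1.22, 0.954 to 1.53). The place of chromosome 5 rested on its first 2 Mb, since the rest of it had 0.608 per Mb, below the 0.716 of all deep gene bodies. The sparsest were chromosome 13 with 1 member (0.0342 per Mb), chromosome 4 with 6 (0.0977) and chromosome 18 with 5 (0.191). Across the 22 chromosomes the density of members followed that of intervals between genes, with Spearman's coefficient of 0.761 and Pearson's r of 0.838, and followed that at gene ends less closely, with 0.487 and 0.299. These are descriptions of 22 chromosomes that share 1 library and differ in base composition and gene density, which were not separated here.

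The hosts were then read against gene lists, counting genes over 10 kb and taking 3.83% as the background. Length differed between the lists and moves with the share, so the median length is given beside each. Glycolysis genes (median 32.6 kb) hosted a member in 1 of 49 cases, HK1, the hexokinase of most tissues, with a score of 25 at chr10:69318791-69318999, 169 bp from an inner start. The other 48 glycolysis genes over 10 kb hosted none. Liver identity genes (33.1 kb) had 2 of 57, namely RXRA, the shared partner of many nuclear receptors, with scores of 39 and 22, and HPD, an enzyme of tyrosine breakdown, with 38 and 19. Drivers of HCC (65.2 kb) had 1 of 52, STK11, a tumour suppressor kinase, with 3 intervals of scores 39, 35 and 17.

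Signalling lists had somewhat higher shares with wide intervals. That of the Wnt list held the background, which is not matched for length. The genes of these lists were longer than the 42.0 kb of all genes over 10 kb, and shares by length class are given below. Wnt pathway genes (60.2 kb) had 6 of 82 (7.32%, 3.40 to 15.1), with TCF7L2, the Wnt transcription factor, at 35, the inhibitor NKD2 at 34 and 15, the receptor LGR6 at 29, the ligands WNT3 at 27 and WNT7A at 17, and the coactivator BCL9L at 25. MAPK cascade genes (87.0 kb) had 6 of 71 (8.45%, 3.93 to 17.2), led by the phosphatase DUSP8 with scores of 58, 37 and 16. The kinases of this list were MAP3K12 at 42, MAPKAPK3 at 37, MAP3K11 at 29 and MAP2K3 at 24, and the exchange factor RASGRF1 scored 21. Insulin and growth factor signalling genes (92.0 kb) had 7 of 71 (9.86%, 4.86 to 19.0). They were the kinases MTOR at 40 and AKT1 at 32, the receptors IGF2R at 39, TGFBR3 at 34, EGFR at 15 and PDGFRB at 14 and 13, and the PI3K subunit PIK3R2 at 18. In MAPKAPK3 and TGFBR3 the interval was within 1 kb of an inner start.

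Chromatin regulators (86.8 kb) had 10 of 116 (8.62%, 4.75 to 15.1). CTCF, the insulator protein, scored 59 with an interval 999 bp wide, and the histone demethylases KDM2A, KDM2B and KDM4B scored 43, 39 and 27 at their highest. The remodeller CHD8 scored 39, and NCOA2, a coactivator, and DOT1L, a histone methyltransferase, scored 32 and 23. Adhesion and cytoskeleton genes (147.2 kb) had 10 of 98 (10.2%, 5.64 to 17.8). ITGB5 scored 71, PLEC 60, TJP1, which encodes the tight junction protein ZO-1, 55 and LAMA5, a laminin chain, 53, followed by the myosins MYO5A at 32, MYO9B at 29 and MYO1D at 27, and MACF1, a linker of actin and microtubules, at 25.

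Within the length class of 30 to 100 kb, where 4.23% of all genes were hosts, the hosts were 4 of 45 chromatin regulators (8.89%) and 3 of 26 adhesion genes (11.5%). At 100 to 300 kb, against 6.11% of all genes, they were 4 of 44 (9.09%) and 4 of 41 (9.76%). In the Wnt, MAPK and insulin lists, hosts were 3 of 35 (8.57%), 2 of 23 (8.70%) and 1 of 27 (3.70%) at 30 to 100 kb. At 100 to 300 kb they were 2 of 26 (7.69%), 1 of 28 (3.57%) and 4 of 30 (13.3%). At 10 to 30 kb, 1.98% of all genes were hosts. In this class the Wnt, MAPK and insulin lists had 1 of 19 (5.26%), 3 of 17 (17.65%) and 2 of 9 (22.2%). Chromatin regulators had 0 of 18 there and adhesion genes 1 of 7 (14.3%). Over 300 kb, against 6.50% of all genes, chromatin regulators had 2 of 9 (22.2%) and adhesion genes 2 of 24 (8.33%). The Wnt, MAPK and insulin lists had no host among 2, 3 and 5 genes of that length. These counts are small and were not tested. Long neuronal genes (791.8 kb) had 5 of 87 (5.75%, 2.48 to 12.8), which is close to the 6.50% of all genes over 300 kb. They were DLGAP1 at 29, RBFOX3 at 24, GRM7 at 22, GRIK4 at 22 and 18, and GRID1 at 13. RFX factors are known regulators of cilium genes. None of the 57 genes over 10 kb on the ciliary list hosted a member (upper limit 6.31%). None of the 7 RFX family genes over 10 kb did either (upper limit 35.4%), and at these sizes a share near the background was not distinguishable from none. The ciliary list does not hold every cilium gene. CROCC, which encodes a protein of the ciliary rootlet, is not on it and had 3 members with scores of 56, 48 and 31. It is named after its values were seen.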

How the data were processed

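Samples were grouped by title into 1 ChIP and 1 input library. The authors deposited a peak list for the ChIP alone, with a whole-number score per peak. The submitters' processing notes name MACS2 2.1.0.2 and GRCh37. The aligner, the control used in calling, the meaning of the score and the read depth were not given in the sources used here, so the depth behind each peak is unknown.

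The 6214 lines were read, 1 line with digit separators was repaired, and lines with identical coordinates were counted once with the highest score, which left 5022. Coordinates are 1-based. Despite the named build, intervals fell within 1 kb of protein-coding gene ends of the GRCh38.p14 RefSeq table on all 22 chromosomes (50.0 to 90.0% per chromosome, against at most 13.3% after moves of 20 kb), so GRCh38 was used. Exonic and intronic members could not be told apart. Strands came from the RefSeq start table, which covers 79.0% of protein-coding genes and none on chromosome 8. Base composition and motifs were read in start windows only, since no genome sequence was used here.

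Densities carry exact Poisson 95% intervals, shares Wilson intervals. Stretches of over 2 Mb without a gene were left out of the length between genes. Python 3.11.15, numpy 2.4.6, pandas 2.3.3, scipy 1.17.1 and matplotlib 3.10.9 were used. The position classes were tested at random positions of chromosome 1 against a second, slower classification. The interval of a density ratio was tested on simulated counts. Named were the 10 members of highest score, the 5 widest, the 5 farthest from a gene end, the 6 genes with most members, the 3 intervals on each side of the limit, and up to 8 hosts per gene list, except items that are not reported here. Members, gene lists and tests were chosen with earlier results of these data known. Alternatives were score minimums of 20 and 30, moves of 20 kb, a limit of 10 kb, other handling of repeated, neighbouring or overlapping intervals, of non-coding gene ends and of gene-free stretches. Added after the data had been seen were the omission of inner starts, of the 6 genes with most members, of the first 2 Mb of chromosome 5 and of 2 genes of doubtful extent, and the alternatives for inner starts.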

Additional observations from a re-analysis of the deposited data

How the results depend on the processing

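Main values are in parentheses at first mention. With scores of at least 30, the share of members among autosomal intervals (14.5%) was 12.2%, the excess of hosts with a peak at an own end (7.28 points) 3.52, the median score (27) 37, the median width (257.5 bp) 282.5 bp, the share of genes hosting a member (3.83%) 1.90% and the density ratio of 5 to 20 kb over beyond 100 kb (14.9) 22.8. With scores of at least 20, the median score was 31.5 and the share of genes 3.22%. After moves of 20 kb up and down, the share of members was 42.8% and 43.3%, the share of genes 11.8% and 12.1%, the distance ratio 42.5 and 53.7, and the density ratio at inner starts (48.4) 1.80 and 0.876, the last with an interval of 0.419 to 1.61 that includes 1. After the move up, the ratio of deep gene bodies to regions between genes (2.104) was 1.87. The moves carried the 3035 intervals at protein-coding gene ends away from those ends, so the shares after them are not a chance level. Intervals in deep gene bodies of the start table then numbered 1736 and 1771, against 582 as listed. A limit of 10 kb gave a share of 9.87%, a ratio of 1.62 and a share of genes of 2.60%. Counting every line gave a share of 13.2%, and ignoring non-coding gene ends 15.6%. Without the members known to be at inner starts, the share was 12.1%, the ratio 1.70 and the share of genes 3.11%. Members whose host was not in the start table were kept there. At inner starts the ratio was 82.3 at 500 bp, 24.2 at 2 kb and 61.2 for scores of at least 30. These changes follow from fewer intervals, other windows or displaced intervals where the alternative is built that way, and otherwise the cause was not tested. Of 88 values under alternatives, the other 60 moved by less than the counting interval of the main value. No paired analysis was possible because the series has 1 ChIP library and no replicate. Peaks below the calling threshold are not in the list, so a gene without a member is one in which no peak was called.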
